A study of Rattus norvegicus with 6 samples.

Results

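The genes described here encode the clotting proteins of rat semen, Semg1 (also called Svs2), Svs4 and Svs3a, and Tgm4, the prostate transglutaminase that joins such proteins into a plug. They were chosen as all probe sets annotated to these 4 genes, 4 of 4736 genes named by at least 1 probe set, which gave 7 of the 8799 probe sets on the array: 2 for Semg1, 2 for Svs4, 1 for Svs3a and 2 for Tgm4. No probe set annotated to several genes named any of them. The samples were prostates of male rats of the inbred ACI strain, 3 rats given a high corn oil diet and 3 given a low corn oil diet, which the series' design text calls the control diet, for 18 months. Each rat had its own array, made from total RNA of part of its dorsolateral prostate, the paired dorsal and lateral lobes. The labels give 18 months both as the feeding time and as the age, and the sources used here do not state how much oil each diet held. The free-text description of high corn oil replicate 3 names the low diet, while its title and source name place it in the high group, where it was kept.

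In rodents, semen sets into a firm copulatory plug after mating. The seminal vesicles supply the substrate proteins, which include semenogelin and the other SVS (seminal vesicle secretion) proteins, and the dorsal prostate and the coagulating gland, or anterior prostate, supply transglutaminase 4, which links glutamine to lysine side chains between them. The SVS genes lie together on a chromosome beside protease inhibitor genes, evolve fast, and are well known as genes driven by androgen in the seminal vesicle.

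In the rat annotation GRCr8 the order of the protein-coding genes on chromosome 3 is Semg1, Svs3b, Svs4, Svs3a, Svs6 and Svs5, and Tgm4 lies on chromosome 8. The 250 bases before the annotated start of each of the 4 genes are shown because they set the relatedness of the family beside the array values. They are from RefSeq on GRCr8, 5′ to 3′ on the strand of the gene. All 4 genes matched the table by gene identifier. The windows are chr3:173332262-173332511 on the minus strand for Semg1, chr3:173369879-173370128 on the minus strand for Svs4, chr3:173380835-173381084 on the plus strand for Svs3a and chr8:131566637-131566886 on the plus strand for Tgm4. Capitals mark the letters TATAAA and GATAA on the printed strand, wherever they stand. Such letters occur in TATA boxes and GATA factor sites, but whether any marked stretch serves as one was not tested.
Semg1: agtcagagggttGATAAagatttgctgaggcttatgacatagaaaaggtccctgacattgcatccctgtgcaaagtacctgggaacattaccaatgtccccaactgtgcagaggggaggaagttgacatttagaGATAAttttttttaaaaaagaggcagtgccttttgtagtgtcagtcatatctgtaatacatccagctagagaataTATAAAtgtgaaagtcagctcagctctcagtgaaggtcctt
Svs4: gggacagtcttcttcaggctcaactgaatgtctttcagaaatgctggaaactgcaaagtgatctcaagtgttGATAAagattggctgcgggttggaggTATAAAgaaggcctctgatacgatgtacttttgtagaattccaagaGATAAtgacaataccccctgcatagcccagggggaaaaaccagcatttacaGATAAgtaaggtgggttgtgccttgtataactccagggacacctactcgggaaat
Svs3a: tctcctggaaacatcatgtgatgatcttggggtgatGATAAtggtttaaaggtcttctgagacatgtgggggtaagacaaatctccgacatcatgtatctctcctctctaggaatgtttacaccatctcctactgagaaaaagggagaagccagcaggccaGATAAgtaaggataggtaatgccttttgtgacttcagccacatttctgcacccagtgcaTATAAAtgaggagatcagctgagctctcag
Tgm4: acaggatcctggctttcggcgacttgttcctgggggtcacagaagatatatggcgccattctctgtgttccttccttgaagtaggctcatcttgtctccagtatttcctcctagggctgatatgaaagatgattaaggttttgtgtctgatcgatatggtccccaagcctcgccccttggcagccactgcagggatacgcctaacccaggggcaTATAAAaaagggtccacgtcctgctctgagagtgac

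TATAAA began 41 bases before the start in Semg1, 30 in Svs3a, 36 in Tgm4 and 152 in Svs4, where it lay much farther out. Only these exact letters were sought. The Svs4 window also holds the close variant TATAAC, unmarked, much nearer its start. The letters TATAAA stood on either strand in 12.9% of 33469 rat promoter windows of the same length, and on the strand of the gene in 8.06%. GATAA occurred 2 times in Semg1, at 238 and 116 bases before the start, 3 times in Svs4, at 178, 106 and 55, and 2 times in Svs3a, at 214 and 89. Tgm4 had no GATAA on either strand, against 23.5% of all windows with at least 1. On the strand of the gene, 13% of all windows had at least 1. The half-site AGAACA of the androgen receptor was in none of the 4 windows on either strand, and in 17.5% of all windows.

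The longest run of letters shared by a pair of windows on the printed strand was 13 bases for Semg1 with Svs4 and for Svs4 with Svs3a, and 10 for Semg1 with Svs3a. With Tgm4 it was 8 for Semg1, 8 for Svs4 and 9 for Svs3a. The run of Semg1 and Svs4, GTTGATAAAGATT, which overlaps GATAA, began 241 and 181 bases before the start. It stood in 2 of the 33469 windows, those of Semg1 and Svs4 themselves. The run of Svs4 and Svs3a, CAGATAAGTAAGG, which also overlaps GATAA, began 57 and 91 bases before the start. It stood in 4 windows, among them those of Svs4, Svs3a and Svs3b. These runs were sought after the sequences had been read and picked for being shared, so the small counts are no test of rarity. End to end, the Svs3a window was 96.8% identical to that of Svs3b, a nearby gene with no probe set here. Whether the Svs3a probe set also reads Svs3b RNA is uncertain, as no RNA or probe sequences were compared. The other pairs among the 4 genes were 38.3% to 51.2% identical, a range that includes all 3 pairings of Tgm4 with a gene of the cluster (47.3% to 48.0%).

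Values are deposited intensities on a linear scale, and 1 probe set's level is not comparable with another's. All 7 probe sets were above 0 on every array and passed the filter on dim signal, a mean of at least 343. Differences between diets are log2(value + 156.1), high minus low, from limma fitted to all 5244 probe sets that passed, with Benjamini-Hochberg adjusted p-values over all of them and a threshold of 0.05. In this bulk tissue fewer cells of a type and less RNA per cell cannot be told apart.

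None of the 7 probe sets differed between the diets by this test, and none of the 5244 did (0% called), with 522 (9.95%) at an unadjusted p under 0.05. At that level Svs3a was the 1 member. The smallest limma adjusted p over all probe sets was 0.462. Of the members 5 were higher and 2 lower on the high corn oil arrays, and they had a median log2 difference of 0.11, against 53.9% higher and a median of 0.03 over all tested probe sets. The values of the diets did not overlap in 1 of the 7, against 15.5% of all tested probe sets (8.83% with the high corn oil values above and 6.71% with them below).

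Among the substrate genes, Semg1 encodes the major clotting protein of rat semen and is the relative of human semenogelin. Its probe set J05443cds_at, made to the coding sequence, gave 56555, 42256 and 48673 on the high corn oil arrays (replicates 1 to 3), against 47952, 38903 and 57232 on the low corn oil arrays. The groups overlapped throughout, and the highest array was only 1.47 times the lowest. The means were 49161 ± 7162 under the high and 48029 ± 9165 under the low corn oil diet (SD, n = 3 each), a log2 difference of 0.04 ± 0.19 (SE) with a 95% interval of -0.40 to 0.48 (limma adjusted p = 0.939).

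The second Semg1 probe set, rc_AI639526_at, made to an expressed sequence tag, went another way. It read 80278, 30689 and 36240 on the high corn oil arrays, against 58912, 62612 and 75216 on the low corn oil arrays. High corn oil replicates 2 and 3 lay below every low corn oil array, and replicate 1 lay above every one of them. The means were 49069 ± 27170 under the high and 65580 ± 8548 under the low corn oil diet (SD, n = 3 each). The log2 difference was -0.54 ± 0.34 (SE) with a 95% interval of -1.35 to 0.27 (limma adjusted p = 0.553). Without high corn oil replicate 1 it was -0.96 (limma adjusted p = 0.0313), in a fit that called 214 of 5244 probe sets (4.08%). With quantile normalization as well it was -0.81 (limma adjusted p = 0.0228), in a fit that called 218 (4.16%). The direction was the same without each other array, at -0.62 to -0.27. The 2 probe sets of Semg1 therefore disagreed, by 0.45 log2 units as a root mean square over the 6 arrays once each was centred on its own mean.

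Svs4 encodes a small, abundant protein of seminal vesicle secretion that transglutaminase can modify. Its probe set J00791_s_at read 28622, 32772 and 39172 on the high corn oil arrays, against 34072, 26256 and 42692 on the low corn oil arrays. These 6 values interleaved, with low corn oil replicates at both ends. The means were 33522 ± 5315 under the high and 34340 ± 8221 under the low corn oil diet (SD, n = 3 each), and the log2 difference was -0.02 ± 0.21 (SE) with a 95% interval of -0.51 to 0.48 (limma adjusted p = 0.978). X01114_at, the other Svs4 probe set, was dim, at 1482, 640 and 1619 on the high corn oil arrays against 663, 1612 and 1113 on the low corn oil arrays. Each diet held arrays at both ends of this range. Its log2 difference was 0.11 ± 0.40 (SE), with a 95% interval of -0.84 to 1.06 (limma adjusted p = 0.920). The 2 probe sets of Svs4 did not follow each other, with a root mean square difference of 0.59 log2 units.

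Svs3a encodes another substrate protein of the plug, and its log2 difference between the diets was the largest in size among the 7 probe sets. D00920mRNA_at read 2679, 1109 and 3322 on the high corn oil arrays, against 1076, 1231 and 684 on the low corn oil arrays. High corn oil replicates 1 and 3 were above every low corn oil array, while replicate 2 lay among them. The means were 2370 ± 1138 under the high and 997 ± 282 under the low corn oil diet (SD, n = 3 each). On the log2 scale this was a difference of 1.04 ± 0.40 (SE) with a 95% interval of 0.10 to 1.98, an unadjusted limma p of 0.0350 and a limma adjusted p of 0.480. It was positive without each array in turn, from 0.75 without high corn oil replicate 3 to 1.48 without high corn oil replicate 2, and 0.34 when replicate 3 of the high diet was moved to the low group.

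**Figure D1:**
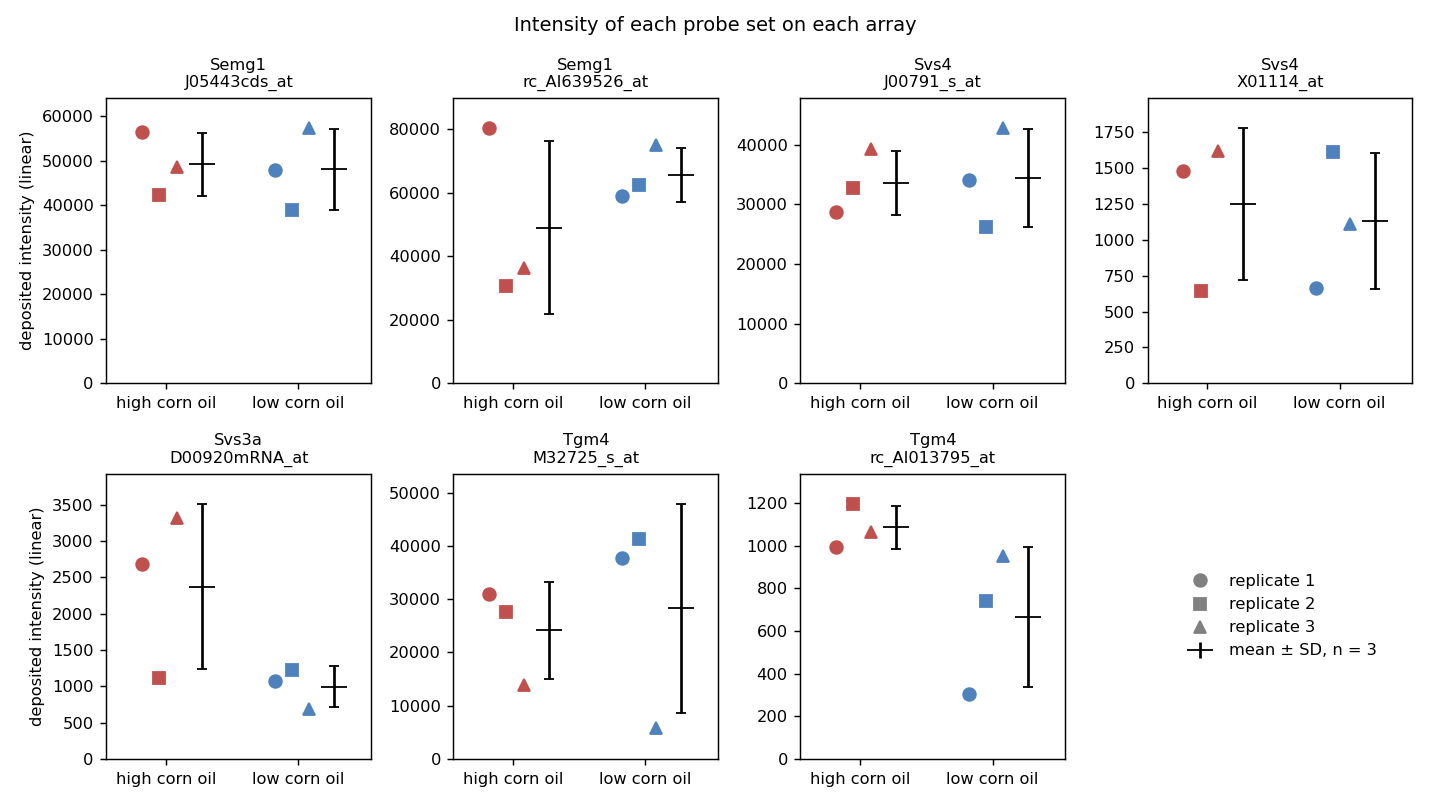
Deposited intensity (linear axis from 0, scale of its own in each panel) of the 7 probe sets on the 3 high and 3 low corn oil arrays, with replicates by marker and mean ± SD in black. The diets overlap in every panel except Tgm4 rc_AI013795_at, and Tgm4 M32725_s_at is lowest on low corn oil replicate 3 at 5749.

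Tgm4, the enzyme of the group, was known as dorsal protein 1 before its activity was described, and is secreted by the dorsal prostate and the coagulating gland. Its probe set M32725_s_at read 31002, 27652 and 13870 on the high corn oil arrays, against 37737, 41267 and 5749 on the low corn oil arrays. In each diet replicate 3 was far below the other 2 arrays, and the low corn oil group held the highest and the lowest value of all. The lowest and highest low corn oil arrays differed 7.18 times, and those of the high corn oil diet 2.24 times. Means were 24174 ± 9080 under the high and 28251 ± 19567 under the low corn oil diet (SD, n = 3 each). The log2 difference was 0.13 ± 0.74 (SE), opposite in sign to the difference of the linear means, with a 95% interval of -1.60 to 1.86 (limma adjusted p = 0.949). Without low corn oil replicate 3 the log2 difference was -0.79 (limma adjusted p = 0.504), and without low corn oil replicate 2 it was 0.62.

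The second Tgm4 probe set, rc_AI013795_at, made to an expressed sequence tag, was the member whose diets did not overlap. It read 995, 1194 and 1065 on the high corn oil arrays, against 305, 741 and 952 on the low corn oil arrays. The high corn oil values lay close together and just above the top low corn oil value. Of all tested probe sets, 8.83% had every high corn oil value above every low one. The means were 1085 ± 101 under the high and 666 ± 330 under the low corn oil diet (SD, n = 3 each), a log2 difference of 0.68 ± 0.35 (SE) with a 95% interval of -0.14 to 1.51 (limma adjusted p = 0.517). Low corn oil replicate 1 carried much of it: without that array the log2 difference was 0.31 (limma adjusted p = 0.786). This probe set was lowest where M32725_s_at was near its top, on low corn oil replicate 1, and the 2 were 1.29 log2 units apart as a root mean square. Both Tgm4 log2 differences were positive. That of M32725_s_at changed sign with the array left out, and that of rc_AI013795_at did not.

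**Figure D2:**
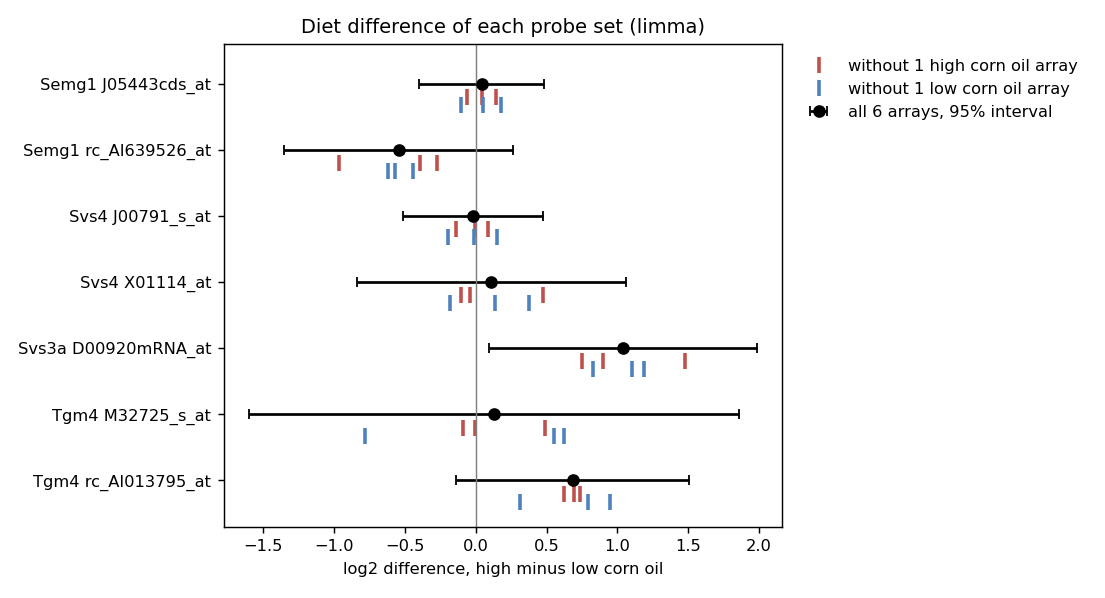
Log2 difference of each probe set, high minus low corn oil (horizontal axis), with limma's 95% interval in black and the value without each single array as a red tick (a high corn oil array left out) or blue tick (a low one). The interval lies to the right of 0 only for Svs3a, before adjustment, and the ticks of both Svs4 probe sets, Semg1 J05443cds_at and Tgm4 M32725_s_at fall on both sides of 0.

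Rats on the same diet differed from each other more in Tgm4 M32725_s_at than in the other 6 probe sets. Between rats of one diet, the pooled SD of M32725_s_at was 1.21 log2 units, wider than 97.6% of the tested probe sets, whose median SD was 0.31. Svs3a at 0.61, Svs4 X01114_at at 0.60 and Semg1 rc_AI639526_at at 0.54 were wider than 84.8%, 84.4% and 80.3% of them. The bright probe sets Semg1 J05443cds_at at 0.25 and Svs4 J00791_s_at at 0.29 were below that median, and Tgm4 rc_AI013795_at was at 0.47. The Gapdh ratio of 3' to 5' signal, which rises as RNA breaks down, stood in nearly the same order over the arrays as Tgm4 M32725_s_at. On the log2 scale it was 0.23, 0.12 and 0.0087 on the high corn oil arrays, against 0.29, 0.24 and -0.049 on the low corn oil arrays. Low corn oil replicate 3 was lowest and high corn oil replicate 3 next lowest in both, and low corn oil replicates 1 and 2 were the top 2 arrays in both. Its part in the spread of Tgm4 was not tested. Of the bright probe sets, Tgm4 M32725_s_at and Svs4 J00791_s_at were opposite on several arrays. Low corn oil replicate 2 had the highest Tgm4 M32725_s_at and the lowest Svs4 J00791_s_at value, low corn oil replicate 3 had the lowest Tgm4 and the highest Svs4 value, and high corn oil replicate 3 was second in both of these last respects. The dim Tgm4 probe set rc_AI013795_at was above its own mean together with Svs3a on high corn oil replicates 1 and 3, and below it together with Svs3a on low corn oil replicates 1 and 2. The remaining arrays went the other way. Relative to their means, Tgm4 rc_AI013795_at was at 0.47 and Svs3a at -0.35 on high corn oil replicate 2. On low corn oil replicate 3 they were at 0.18 and -0.95.

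**Figure D3:**
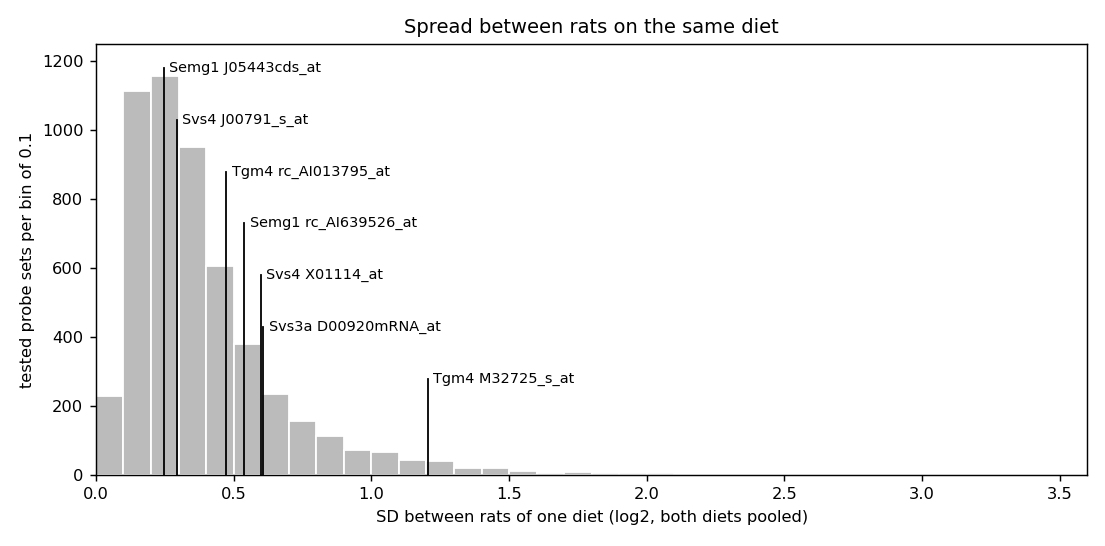
Histogram of the SD between rats of one diet (log2 units, both diets pooled) over 5244 tested probe sets, with the 7 probe sets marked by lines. Tgm4 M32725_s_at stands at 1.21 in the right tail, and Semg1 J05443cds_at at 0.25 and Svs4 J00791_s_at at 0.29 stand in the bulk.

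The labelled tissue was checked against lobe genes, and the arrays differed in them. Probasin (Pbsn) and microseminoprotein (Msmb) are secreted mainly by the dorsal and lateral lobes of the rat, and spermine-binding protein (Sbp), the prostatein subunit Scgb2a1 and Andpro mainly by the ventral lobe. This division of the marker list was made after the values were seen. The 3 bright probe sets of the 2 dorsolateral genes summed to 234490, 86004 and 98981 on the high corn oil arrays, against 194641, 203206 and 215427 on the low corn oil arrays. The 4 probe sets of the 3 ventral genes summed to 15201, 161470 and 162566 on the high corn oil arrays, against 130767, 32678 and 56550 on the low corn oil arrays. High corn oil replicates 2 and 3 thus had the lowest dorsolateral and the highest ventral sums, and high corn oil replicate 1 had the reverse. No defining marker of either lobe was at or below 0 on all arrays. Azgp1, on the same list, did not pass the filter, and Cst3 read 32715, 27937 and 27100 on the high corn oil arrays against 37093, 39468 and 32960 on the low corn oil arrays. Of the list's 6 tested genes 2 were higher and 4 lower, with a median log2 difference of -0.31, and none was called. With 1 array of the high diet left out, it was -0.03 (replicate 1), -0.47 (replicate 2) and -0.59 (replicate 3), and with 1 of the low diet left out -0.14 (replicate 1), -0.52 (replicate 2) and -0.32 (replicate 3). Array weights turned it to 0.03.

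Semg1 rc_AI639526_at moved with the dorsolateral genes. Msmb read 73854, 33652 and 39953 on the high corn oil arrays, against 66835, 71719 and 80234 on the low corn oil arrays. Pbsn M27156_at read 99574, 19851 and 21926 on the high corn oil arrays, against 78113, 82039 and 81437 on the low corn oil arrays. As in rc_AI639526_at, high corn oil replicates 2 and 3 were the lowest 2 of the 6 arrays in both. The part of the lobe genes in the Semg1 difference was not tested. J05443cds_at, Svs4, Svs3a and Tgm4 did not follow this split. Tgm4 M32725_s_at, for example, was 5749 on low corn oil replicate 3, where the dorsolateral sum was 215427, and 27652 on high corn oil replicate 2, where it was 86004.

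**Figure D4:**
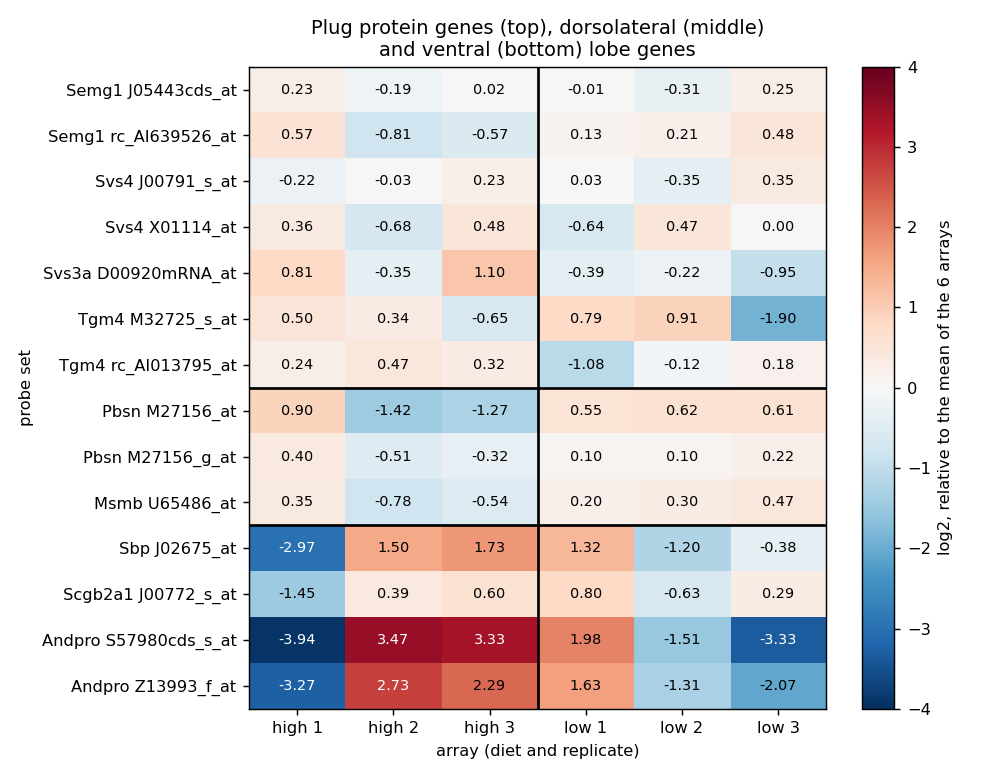
Log2 level of each probe set (rows) on each array (columns), relative to its own mean over the 6 arrays, for the 4 genes at the top, dorsolateral lobe genes in the middle and ventral lobe genes at the bottom. On high corn oil replicates 2 and 3 Semg1 rc_AI639526_at is at -0.81 and -0.57, and Msmb at -0.78 and -0.54. Tgm4 M32725_s_at has its minimum, -1.90, on low corn oil replicate 3.

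Other secreted genes of the seminal vesicle were mostly near 0. Of the list of other seminal vesicle and plug genes 5 had probe sets and 1 passed the filter. Svs5, the end gene of the cluster, read -45, -194 and -75 on the high corn oil arrays, against 28, -172 and -100 on the low corn oil arrays. Svs1, a secreted relative of amine oxidases, read -70, 16 and 117 on the high corn oil arrays, against 16, -118 and 106 on the low corn oil arrays. Spink1 and Spink1l, encoding trypsin inhibitors, also missed the filter. Thus 2 of the classical seminal vesicle genes were at background on arrays where both Semg1 probe sets and Svs4 J00791_s_at gave strong signal. The other Svs4 probe set, X01114_at, was dim, at 640 to 1619. How well the Svs5 and Svs1 probe sets respond was not checked here. Pip, the prolactin-induced protein, read 1081, 3341 and 3297 on the high corn oil arrays, against 912, 1813 and 2246 on the low corn oil arrays, a log2 difference of 0.52 ± 0.48 (SE, limma adjusted p = 0.665).

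Among other transglutaminases 2 had probe sets. Tgm1, the keratinocyte enzyme, missed the filter, with 3 of 6 values at or below 0. F13a1, the A subunit of coagulation factor XIII, read 205, 474 and 426 on the high corn oil arrays, against 1057, 342 and 682 on the low corn oil arrays, and its log2 difference was -0.64 ± 0.42 (SE, limma adjusted p = 0.557).

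The lists of protease inhibitors and of proteases that act in semen or at the prostate surface gave no call either. Of the 8 protease inhibitor genes with probe sets 7 were tested, 2 were higher and 5 lower, and the median log2 difference was -0.27. It was -0.15 with replicate 3 of the high diet left out and -0.07 with that array moved to the low group. With 1 probe set per gene, the brightest, the lowest p-values were those of Cst3, the cysteine protease inhibitor cystatin C, at -0.32 ± 0.14 (SE, limma adjusted p = 0.501), of Serpine2, a thrombin and plasminogen activator inhibitor, at -0.67 ± 0.40, and of Wfdc1, a whey acidic protein family member, at -0.46 ± 0.30. Spint2, a membrane Kunitz inhibitor, was bright and at -0.13 ± 0.19, and Pebp1, once known as a phosphatidylethanolamine-binding protein of semen and brain, was bright and at 0.14 ± 0.12. The probe sets of A2m, the broad protease inhibitor alpha-2-macroglobulin, disagreed. The brightest had a log2 difference of 0.10 ± 0.20. M23566exon_s_at was at -2.76 ± 1.07 (SE), with a limma adjusted p of 0.480, and by p it came before Cst3. M23566exon_s_at read 2815, -3289 and -3911 on the high corn oil arrays, against 3293, 2605 and 2208 on the low corn oil arrays, and its difference rests on values below 0 that were set to 0. Serpina5, the protein C inhibitor found in semen, was at or below 0 on all arrays.

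The list of semen and surface proteases, which also holds the phosphatase gene Acp3, had 14 genes with probe sets. Of these 7 were tested, 6 higher and 1 lower, with a median log2 difference of 1.11. With 1 array of the high diet left out, that median was 2.21 (replicate 1), 0.35 (replicate 2) and 0.49 (replicate 3), and with replicate 2 of the low diet left out it was 0.74. It was 0.21 when replicate 3 of the high diet was moved to the low group. The tissue kallikreins made up 4 of the 6, and they share sequence, so their probe sets may read each other's RNA. Klk1c12 was at 1.54 ± 0.76 (SE, limma adjusted p = 0.508) and Klk1 at 2.04 ± 1.34. Klk1c9 read 578, 36704 and 44197 on the high corn oil arrays, against 15960, 1374 and 1895 on the low corn oil arrays, the same order of high and low arrays as the ventral lobe sum among its top 3. The part of the lobe genes in the kallikrein differences was not tested. Plau, the urokinase gene, was at -0.64 ± 0.37. Klk1c2, Klkb1 and Acp3, the prostatic acid phosphatase gene, were at or below 0 on all arrays.

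Genes near the members on the chromosome did not differ by the test. Within 1 Mb of Semg1, Svs4 or Svs3a 9 of 16 genes with probe sets were tested, 6 higher and 3 lower, with a median log2 difference of 0.14 (Dnttip1, Hnf4a, Jph2, Sdc4, Serinc3, Sys1, Tnnc2, Wfdc6a and Ywhab). Within 1 Mb of Tgm4 5 of 6 were tested, 2 higher and 3 lower, with a median of -0.08 (Ccr1, Cdcp1, Slc6a20a, Snrk and Zdhhc3). The sign of that median was not stable. It was 0.05 with replicate 3 of the high diet left out and 0.13 with it moved to the low group. Quantile normalization without replicate 1 of the high diet gave -0.30.

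The profile over the 6 arrays most like that of Semg1 rc_AI639526_at, by the smallest root mean square difference of centred log2 values among tested probe sets of other genes, was that of Msmb, at 0.11 log2 units, followed by Cilk1 (0.12) and Pgrmc1 (0.13). Semg1 J05443cds_at was nearest to Ppil2 (0.06), Nat1 (0.06) and Rps23 (0.07), and Svs4 J00791_s_at to Psap (0.07), RT1-M5 (0.08) and Acly (0.08). Svs4 X01114_at was nearest to Arih2 (0.21), Casp6 (0.21) and Eci1 (0.24). For Tgm4 rc_AI013795_at the nearest were Nppc (0.07), St6galnac3 (0.10) and Pik3r2 (0.13). Clca4 (0.25), Kcnh7 (0.32) and Polr2h (0.35) were nearest to Svs3a, and Or10al6 (0.47), Ciao1 (0.51) and Mapkapk3 (0.52) to Tgm4 M32725_s_at. The profiles were centred but not scaled, so by this measure a probe set that varies more between arrays lies farther from all others. The distances of different members are therefore not comparable. For each of the 3 genes with 2 probe sets, the other probe set of the same gene was farther away than these genes. The likeness is a description over 6 arrays, the smallest of very many differences computed.

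Over the arrays as a whole, the median value was 573 to 710 on the high and 591 to 632 on the low corn oil arrays, and 18.8% to 23.1% of the values on the high and 18.6% to 20.3% on the low corn oil arrays were at or below 0. Bacterial spike-in signal was above its median on replicate 1 of the high diet and replicates 1 and 2 of the low diet. With that split as a block, the log2 difference was 1.22 for Svs3a, 0.70 for Tgm4 M32725_s_at and -0.38 for Semg1 rc_AI639526_at, and none passed. Luminal epithelial markers summed to 104812 to 124146 on the high and 109186 to 114610 on the low corn oil arrays, with 3 of 5 tested genes higher and a median log2 difference of 0.02. Medians of other cell type lists were 0.20 for basal epithelium (2 of 2 tested genes higher), -0.28 for smooth muscle (8 of 9 lower), -0.61 for fibroblasts (8 of 8 lower), -0.63 for macrophages (5 of 5 lower) and -0.26 for skeletal muscle (6 of 6 lower), with none called in any list. An unadjusted limma p under 0.05 was found for 6 fibroblast, 3 macrophage and 2 smooth muscle genes, against 9.95% of all tested probe sets. Over the arrays left out, the fibroblast median stayed at -0.71 to -0.49 and the macrophage median at -0.71 to -0.46. With replicate 3 of the high diet moved to the low group, the fibroblast median was -0.35 and the macrophage median -0.53. Leaving out 1 array turned the skeletal muscle median to 0.10 (replicate 1 of the high diet) and brought it to -0.55 (replicate 2 of the high diet), -0.40 (replicate 1 of the low diet) and -0.0082 (replicate 2 of the low diet). The smooth muscle median lay at -0.58 with replicate 2 of the high diet left out and at -0.16 with replicate 1 of the low diet left out. The basal median was 0.13 without the first of these, and the luminal median lay on both sides of 0, at -0.07 to 0.07 over the arrays left out.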

How the data were processed

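Total RNA (6 ug per rat) was labelled with biotin and read on 1 Affymetrix array per rat, per the labels' protocols. The deposited intensity values are on a linear scale. Per the submitters' processing notes the tool was MAS5. Its settings are not given in the sources used here. The authors had scaled the deposited intensity values: without the highest and lowest 2%, the mean was 2500.00 on every array. How values at or below 0 arose is not given in the sources used here. At most 0.0568% of probe sets had identical values on a pair of arrays.

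Probe sets were named from the platform annotation, updated by gene identifier to GRCr8 symbols: 7006 had 1 gene, 308 several and 1426 none, and 59 were controls. Values below 0 were set to 0, then transformed as log2(value + 156.1), the pseudocount being the median of all values (624.6) divided by 4. Probe sets with a mean at or above the 40th percentile (343) were tested, 5244 of 8740, with limma 3.58.1 in R 4.3.3 (intensity trend, all 6 arrays, no covariate, both directions), after a test on simulated data. The simulated data had the SDs shuffled among the probe sets, so that test does not bear on the intensity trend. The 3 arrays per diet limit the precision. Promoter windows were aligned with Biopython 1.88.

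The members, gene lists, test and alternatives were chosen with earlier results of these data known. Named were all member probe sets, list members with a mean above the 90th percentile of the array or with 1 of the 3 smallest p-values of their list, and the 3 nearest profiles of each member. Per gene the probe set with the highest mean was used in lists. Alternatives changed the pseudocount, filter, normalization, transformation, intensity trend, array weights, blocks and the group of high corn oil replicate 3, or left out each array. The closing section gives their effect.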

Additional observations from a re-analysis of the deposited data

How the results depend on the processing

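Over 19 alternatives, Svs3a and Tgm4 rc_AI013795_at stayed positive and Semg1 rc_AI639526_at stayed negative wherever they were tested. Leaving out 1 array at a time gave log2 differences of 0.75 to 1.48 for Svs3a, 0.31 to 0.95 for Tgm4 rc_AI013795_at, -0.96 to -0.27 for Semg1 rc_AI639526_at, -0.10 to 0.18 for Semg1 J05443cds_at, -0.20 to 0.15 for Svs4 J00791_s_at, -0.18 to 0.48 for Svs4 X01114_at and -0.79 to 0.62 for Tgm4 M32725_s_at. The sign of the last 4 thus turned with the array left out. The sign of Svs4 J00791_s_at also turned under quantile normalization (0.061), under array weights (0.25) and when that normalization was joined to leaving out replicate 1 of the high diet (0.21). For Svs4 X01114_at it turned with array weights (-0.064), with replicate 3 of the high diet moved to the low group (-0.24) and with the last combination (-0.13). Array weights (-0.62) and that combination (-0.047) turned Tgm4 M32725_s_at. The cause of these turns was not tested.

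The count of members past limma's adjusted threshold was 0, except 1, Semg1 rc_AI639526_at, without high corn oil replicate 1 (-0.96) and with quantile normalization besides (-0.81), so leaving out each array gave 0 to 1. Over the array the count was 0, or 0 to 214 over the arrays left out, 218 with the combination and 9 with no filter. At an unadjusted p under 0.05 it was 75, with replicate 3 of the high diet moved, to 1534, with array weights. Tgm4 rc_AI013795_at missed the filter at the 60th percentile. Same-numbered arrays did not deviate together (correlations of -0.05, -0.20 and 0.18), so the numbers are not known to pair rats. With the replicate block limma called 0 probe sets, and Svs3a was at 1.04 (adjusted p = 0.470). Of 209 list medians under these settings 6 moved by more than the spread between arrays. They belonged to the lists of protease inhibitors, semen and surface proteases, fibroblasts and genes near Tgm4. Signal over background, not known without detection calls, limits the dim probe sets Svs3a D00920mRNA_at, which has the largest difference, Svs4 X01114_at and Tgm4 rc_AI013795_at.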
